A study of Mus musculus with 6 samples.

Results

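The Hox gene clusters A to D are the 4 stretches of the mouse genome that hold the Hox genes, and this account follows their DNA methylation signal in the hypothalamus of 16-week-old mouse offspring. The members are the 427 tiling probes, out of 174638 on the array, that lie in 4 fixed windows given in the mm9 build. The windows span 175 kb for HoxA, 195 kb for HoxB, 160 kb for HoxC and 140 kb for HoxD. From the first to the last probe they hold chr6:52107817-52266012 (HoxA, 142 probes), chr11:96054405-96227492 (HoxB, 101), chr15:102750289-102865240 (HoxC, 78) and chr2:74496978-74602216 (HoxD, 106). Neighbouring probes with no more than 500 bp between their starts were joined into regions of at least 3 probes over the whole array, and 51 of the 22574 regions lie in the windows: 14 in HoxA, 13 in HoxB, 10 in HoxC and 14 in HoxD. All but 2 of the Hox probes, both in HoxC, belong to a region, and no region crossed a window edge. The regions cover 17.0% of the HoxA window, 10.9% of HoxB, 9.82% of HoxC and 15.5% of HoxD, so most of each cluster was not measured.

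The study set 3 arrays from offspring of inulin-treated dams against 3 arrays from offspring of dams labelled as obese, a group that the labels also call maternal high fat diet. Inulin is a fermentable plant fibre. The labels do not give the strain, the offspring's sex or diet, the diet of the inulin-treated dams, or whether the arrays came from separate litters, and no group of dams without obesity or inulin is among these arrays. The p-values here therefore measure the spread between arrays, which may be technical in part. Each two-colour array carried DNA pulled down with an antibody against methylated cytosine (methylated DNA immunoprecipitation, MeDIP) in Cy5 and the total input DNA of the same sample in Cy3. The value of a probe is log2 of MeDIP over input after each array was centred on its median, so 0 stands for a probe at the array's middle and not for a methylation level of a known percentage.

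Hox genes encode homeodomain transcription factors that give cells their position along the body axis. Within a cluster the genes lie in the order of their paralogue groups, from group 1, active earliest and furthest forward, to group 13 at the tail end. In the nervous system they are known for their roles in hindbrain and spinal cord, while in forebrain tissue such as the hypothalamus the clusters are largely kept silent under Polycomb repression. They are rich in CpG islands, which are mostly unmethylated in normal tissue. MeDIP captures a fragment more readily the more methylated CpGs it carries, so both CpG content and methylation set the signal.

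The gene table used here, of the GRCm38.p6 build, lists 39 Hox genes in the 4 clusters. Because that build differs from mm9, no region is assigned to a gene, and only the order of the genes was used. Group 13 lies at the high-coordinate end of HoxA and at the low-coordinate end of the other clusters. Regions are numbered from the group 13 end of their cluster, so HoxD region 13 is the thirteenth region counted from there and is not the gene Hoxd13. The promoter sequences of RefSeq (GRCm38.p6) hold 24 entries for 22 Hox genes. Over the 250 bases before the gene start, Hox promoters had a median of 12.5 CpGs, against 6 over all 32851 promoters, and 62.5% of them had 10 or more CpGs, against 37.8% of all promoters. These entries are mostly of HoxA (10) and HoxD (10), with 3 of HoxB and 1 of HoxC, which had 8 CpGs. A CpG-rich and a CpG-poor promoter each of HoxA and HoxD are shown because CpG content limits what the antibody can capture. They were chosen after the counts were seen, and a Hoxd11 entry with 2 CpGs, one of 2 for that gene, is the poorest in HoxD. The 250 bases are written in the direction of the gene, with each CpG in capitals. Hoxa13 (chr6:52260881-52261130, minus strand) has 35 CpGs, Hoxd13 (chr2:74667975-74668224, plus strand) has 31, and Hoxa9 (chr6:52227371-52227620, minus strand) and Hoxd4 (chr2:74721728-74721977, plus strand) have 3 each.
Hoxa13: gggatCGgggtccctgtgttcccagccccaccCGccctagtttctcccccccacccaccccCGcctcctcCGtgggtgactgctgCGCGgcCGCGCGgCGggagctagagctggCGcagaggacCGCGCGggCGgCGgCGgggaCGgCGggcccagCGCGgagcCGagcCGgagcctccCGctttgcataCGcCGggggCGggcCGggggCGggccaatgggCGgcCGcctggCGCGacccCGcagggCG
Hoxd13: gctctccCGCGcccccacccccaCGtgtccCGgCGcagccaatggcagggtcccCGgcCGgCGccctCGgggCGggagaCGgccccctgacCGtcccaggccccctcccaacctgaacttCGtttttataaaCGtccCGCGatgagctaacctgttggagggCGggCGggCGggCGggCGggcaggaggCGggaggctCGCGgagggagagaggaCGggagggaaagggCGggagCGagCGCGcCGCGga
Hoxa9: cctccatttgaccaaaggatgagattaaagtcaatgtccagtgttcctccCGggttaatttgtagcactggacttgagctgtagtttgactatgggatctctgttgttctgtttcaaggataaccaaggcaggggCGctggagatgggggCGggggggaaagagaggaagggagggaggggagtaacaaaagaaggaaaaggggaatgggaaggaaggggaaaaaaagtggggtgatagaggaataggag
Hoxd4: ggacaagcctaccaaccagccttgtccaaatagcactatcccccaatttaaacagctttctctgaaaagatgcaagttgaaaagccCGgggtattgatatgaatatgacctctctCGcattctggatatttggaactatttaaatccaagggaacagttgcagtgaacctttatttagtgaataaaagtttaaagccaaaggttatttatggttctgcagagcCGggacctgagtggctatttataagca
CpGs recur through most of the stretches before the group 13 genes, and those before Hoxa9 and Hoxd4 nearly lack them. The sequences were not joined to probes.

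On each array 94.4% to 96.4% of the probes had an input signal well above background, and 77.3% to 85.7% had such a MeDIP signal. Of the 427 Hox probes, 335 (78.5%, against 76.7% of all probes) were well above background in both channels on at least 2 arrays of each group, and 40 (9.37%, against 12.5%) were never well above background in the MeDIP channel. After spots marked as outliers were removed, 414 Hox probes and all 51 regions could be tested. According to the file headers, the 3 inulin arrays came from 1 scan and the obesity arrays from 2 others, with obesity arrays 1 and 3 on one and obesity array 2 on the other. Scan and group cannot be told apart.

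The level of the regions, meaning their log2 ratio of MeDIP over input, was highest in HoxD and lowest in HoxC. The median log2 ratio of the regions was 0.25 in HoxD, -0.09 in HoxA, -0.12 in HoxB and -0.21 in HoxC, against -0.06 over all 22574 regions. In HoxC 9 of 10 regions lay below 0, while in HoxD 5 of 14 did. HoxC had the lowest median under each of the 17 alternative settings tried, and HoxD the highest under all of them except when dim probes were removed or when regions took the median of their probes, where HoxA was highest. The channels alone, log2 and centred per array, were ordered otherwise. The median MeDIP signal was 0.05 in HoxD, -0.002 in HoxA, 0.08 in HoxB and 0.19 in HoxC, against 0.06 over all regions. The median input signal was -0.002, 0.08, 0.29 and 0.36 in the same order, against 0.05. HoxC, lowest in the ratio, was thus highest in both channels. Levels of different probes also depend on CpG content and on the probe itself, so the order of the ratios is a description and was given no test.

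On the inulin arrays 1, 2 and 3 the median of the HoxA regions was -0.06, -0.23 and -0.18, and on the obesity arrays -0.03, -0.08 and 0.16. For HoxB these medians were -0.17, -0.05 and -0.11 with inulin and -0.19, -0.29 and -0.22 with obesity. For HoxC they were -0.24, -0.20 and -0.15 against -0.33, -0.30 and -0.17. In HoxA and HoxC the groups overlapped, and in HoxB all inulin medians lay above all obesity medians by a small margin. The medians over all regions of the array were separated in the same direction, at -0.032, -0.043 and -0.045 with inulin and -0.056, -0.092 and -0.068 with obesity. Taken region by region, 7 of the 13 HoxB differences lay below 0, with a median of -0.02. For HoxD the inulin medians were 0.14, 0.14 and 0.16 and the obesity medians 0.28, 0.14 and 0.32, which again overlapped. Obesity array 3 stood apart within the clusters: it held the highest value in 21 of the 51 Hox regions (41.2%), against 18.7% of all regions. Obesity array 2 held the lowest in 20 of 51 (39.2%), against 31.6% of all regions.

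**Figure D1:**
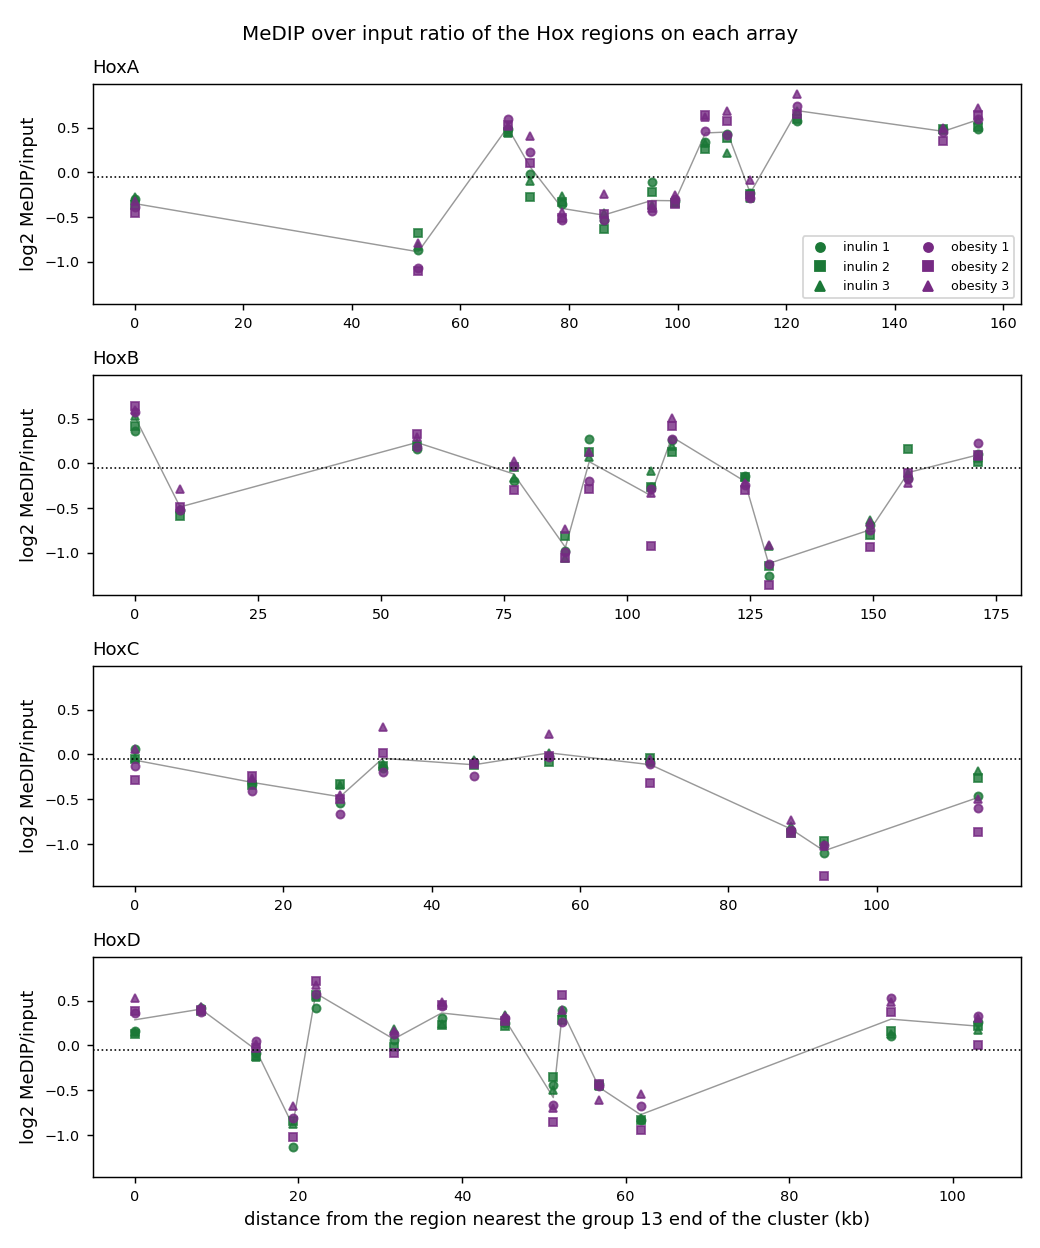
Mean log2 MeDIP/input of each Hox region (y axis) on each of the 6 arrays, against the distance in kb from the region nearest the group 13 end (x axis), in 1 panel per cluster. Green symbols are inulin arrays and purple symbols obesity arrays, the grey line joins the means over arrays, and the dotted line is the median of all regions at -0.06; the arrays follow the same profile, which changes far more from region to region than from array to array.

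The level changed along the clusters, and the profile was shared by all arrays, as the plot of levels by position shows. In HoxA it was highest near the group 1 end. When the window was divided into 3 equal parts, the median was -0.62 in the part next to group 13 (2 regions), -0.13 in the middle (8 regions) and 0.52 in the part next to group 1 (4 regions). HoxA region 12, the highest of the Hox regions (chr6:52141208-52142863, 7 probes), had log2 ratios of 0.58, 0.60 and 0.68 on the inulin arrays and 0.74, 0.65 and 0.88 on the obesity arrays, and stood at percentile 93.4 of all regions. The lowest of HoxA, region 2 (chr6:52210676-52213092, 11 probes, of which 6 were well above background in both channels), had -0.86, -0.68 and -0.82 against -1.07, -1.103 and -0.79. In both the groups overlapped. HoxA was split between high and low regions: when all regions of the array were ordered by level and divided into 5 equal sets, 6 of the 14 HoxA regions fell in the highest set and 6 in the set above the lowest.

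HoxB showed the lowest Hox region. HoxB region 10 (chr11:96183335-96184736, 7 probes) had -1.26, -1.14 and -0.92 on the inulin arrays and -1.12, -1.35 and -0.91 on the obesity arrays, at percentile 8.34 of all regions. The highest HoxB region was the first from the group 13 end (chr11:96054405-96056158, 8 probes), with 0.36, 0.41 and 0.53 against 0.58, 0.64 and 0.60. That region did not overlap between the groups, whereas region 10 did. The medians of the 3 parts of HoxB, from group 13 to group 1, were 0.02, -0.05 and -0.20 over 2, 6 and 5 regions.

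No HoxC region reached the upper 2 of these 5 sets. Its highest, region 6 (chr15:102806163-102807703, 8 probes), had -0.02, -0.09 and 0.02 on the inulin arrays and -0.03, -0.02 and 0.23 on the obesity arrays. Its lowest, region 9 (chr15:102843203-102844762, 8 probes, of which 3 were well above background in both channels), had -1.103, -0.96 and -0.99 against -1.01, -1.36 and -1.02. The groups overlapped in both. HoxD had 8 of its 14 regions in those upper sets. The highest, region 5 (chr2:74519091-74520868, 8 probes), had 0.42, 0.56 and 0.54 on the inulin arrays and 0.57, 0.72 and 0.68 on the obesity arrays, and lay 1121 bp from the lowest, region 4 (chr2:74516351-74517970, 8 probes), with -1.13, -0.84 and -0.87 against -0.81, -1.03 and -0.67. Neighbouring stretches of HoxD thus lay near opposite ends of the Hox range. In region 4, 5 of the 8 probes were well above background in both channels and 3 were never so in the MeDIP channel. In region 5 these numbered 6 and 1 of 8.

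Probes of one region also differed from each other. The pooled standard deviation of probe levels within Hox regions was 1.07, and that between Hox region means was 0.47. Over all regions these were 1.01 and 0.67. Levels of adjacent Hox probes correlated at 0.26 over 374 pairs, against 0.41 over 148507 pairs on the whole array. Within 250 bp of a region's centre the median level was 0.49 over 33 HoxD probes, 0.05 over 32 HoxA probes, -0.31 over 29 HoxB probes and -0.42 over 23 HoxC probes, against 0.02 over all probes there. Between 750 and 1000 bp from the centre it was 0.05, 0.18, 0.34 and 0.13, where all probes of the array had a median of -0.08. The cluster medians lay closer together at the flanks than at the centres. These are descriptions of points that share arrays, fragments and base composition. The mean of a Hox region therefore rests on probes that are far apart in level, as the probe plots of 3 regions below show.

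The labels allow offspring of inulin-treated dams to be compared with offspring of dams labelled as obese. In the Hox clusters 1 of 51 regions passed the threshold as higher in the inulin group and 1 as lower, both in HoxD (limma, adjusted p under 0.05 over all regions). Over the whole array 7.42% of regions passed, 5.61% higher and 1.81% lower, so the Hox count is not above the background. At an unadjusted p under 0.05 there were 12 Hox regions (23.5%), against 28.6% of all regions. Of these 12, 4 had a positive and 8 a negative difference, while over the array 4281 were positive and 2167 negative. HoxA, HoxB and HoxC had 0 regions past the adjusted threshold in limma and 4, 3 and 1 at the unadjusted one. In 17 Hox regions (33.3%) the groups did not overlap, against 35.0% of all regions. Without overlap, 6 of the 51 Hox regions were higher in the inulin group and 11 of the 51 were lower. Among all 22574 regions 4699 (20.8%) were higher in this way and 3197 (14.2%) lower.

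HoxD region 13 (chr2:74589489-74591117, 8 probes), near the group 1 end of its cluster, was lower in the inulin group. Its log2 ratio was 0.11, 0.16 and 0.12 on the inulin arrays and 0.53, 0.37 and 0.48 on the obesity arrays. All inulin values lay below all obesity values. The mean was 0.13 ± 0.026 (SD, n = 3) against 0.46 ± 0.081 (SD, n = 3), a difference of -0.33 with a standard error of 0.073 (limma, adjusted p = 0.0334). Only 4 of its probes were well above background in both channels. One probe carried much of the difference: Ch_220697_0084741 (chr2:74591073-74591117) had 0.37, 0.17 and 0.45 on the inulin arrays and 1.47, 2.09 and 1.52 on the obesity arrays. Its difference was -1.37 with a standard error of 0.189 (limma, adjusted p = 0.0156), and 1 other probe of the region passed, Ch_220697_0084737 (difference -0.52, adjusted p = 0.0446). With scan as a random block the region no longer passed (limma, adjusted p = 0.142). It passed without obesity array 2 but not without inulin array 1, 2 or 3 or obesity array 1 or 3 (limma, adjusted p of 0.0646 to 0.124). It passed in 5 of 17 alternatives, and its adjusted p ranged from 0.00935 to 0.174.

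HoxD region 9 (chr2:74548781-74549246), the short region of 3 probes in the middle of the cluster, was higher in the inulin group. Its log2 ratio was -0.44, -0.35 and -0.49 on the inulin arrays and -0.66, -0.85 and -0.70 on the obesity arrays, so the groups did not overlap. The mean was -0.43 ± 0.073 (SD, n = 3) against -0.74 ± 0.099 (SD, n = 3), a difference of 0.31 with a standard error of 0.080 (limma, adjusted p = 0.0495). None of its 3 probes passed alone. The first, Ch_220697_0084712, had a difference of 0.01, the second, Ch_220697_0084713, of 0.33, and the last, Ch_220697_0084714, of 0.58 (limma, adjusted p = 0.0514 for the last). The call was kept in 2 of 17 alternatives, loess and the removal of dim probes. That removal took none of the 3 probes of this region, so its difference stayed at 0.31. It was lost with scan as a random block (limma, adjusted p = 0.165) and when any 1 of the 6 arrays was left out (0.0627 to 0.194), and the alternatives ranged from 0.0191 to 0.339. The next region, HoxD region 10 (chr2:74549801-74550467, 4 probes), differed by -0.055 (limma, adjusted p = 0.723). With a gap of 1000 bp, where regions 9 and 10 are joined, the difference was 0.12 (limma, adjusted p = 0.292).

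HoxA region 4 (chr6:52190407-52192087, 8 probes) had the largest difference among the HoxA regions and lay just outside the threshold. Its log2 ratio was -0.02, -0.27 and -0.09 on the inulin arrays and 0.23, 0.11 and 0.40 on the obesity arrays, without overlap. The difference was -0.37 with a standard error of 0.099 (limma, adjusted p = 0.0536). It passed with loess, with the replicate block (adjusted p = 0.0262) and without obesity array 2, and its adjusted p ranged from 0.00592 to 0.23. Of its probes, Ch_220697_0126875 (difference -1.25) and Ch_220697_0126877 (difference -1.39) passed, and the remaining 6 did not.

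**Figure D2:**
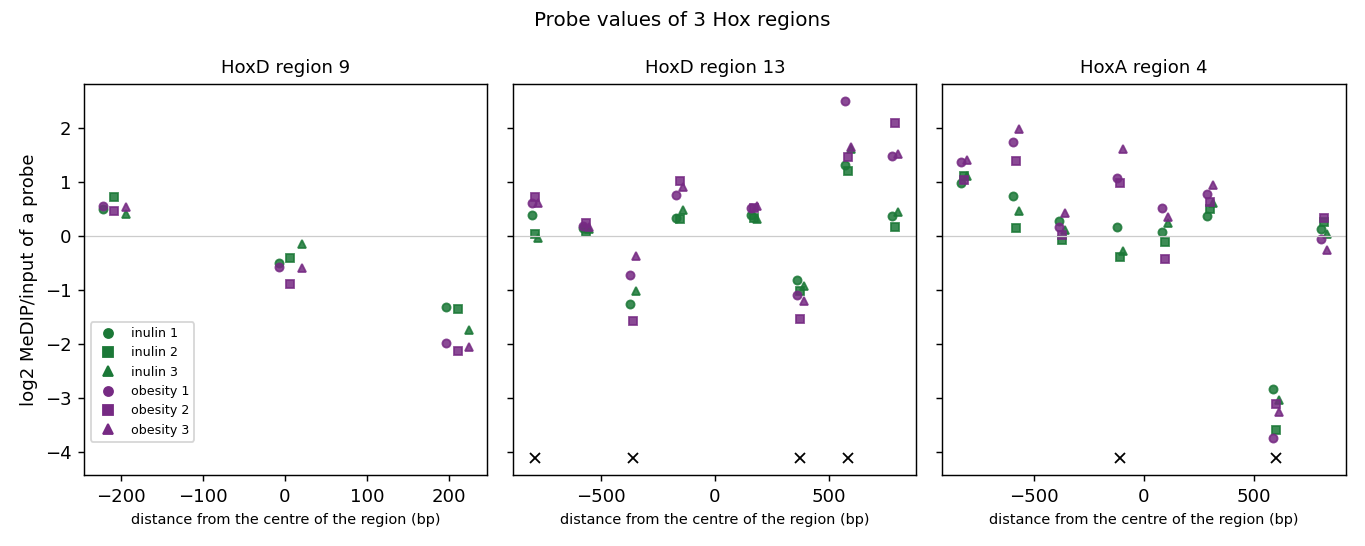
Log2 MeDIP/input of each probe (y axis) against its distance in bp from the centre of the region (x axis) for HoxD regions 9 and 13 and HoxA region 4. Green symbols are inulin arrays and purple symbols obesity arrays, shifted slightly sideways for sight, and a cross at the bottom marks a probe not well above background in both channels; the rightmost probe of HoxD region 13 and the second of HoxA region 4 separate the groups most clearly among the probes without a cross.

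The regions with the largest difference in the other clusters did not pass. HoxC region 10 (chr15:102864327-102865240, 5 probes), the nearest to group 1 in its cluster, had -0.46, -0.27 and -0.18 on the inulin arrays and -0.60, -0.87 and -0.50 on the obesity arrays. The groups did not overlap, and the difference was 0.35 with a standard error of 0.112 (limma, adjusted p = 0.0843). Only 3 of its probes were well above background in both channels. The difference was 0.11 without dim probes, 0.078 in the authors' deposited table and 0.024 with normexp, and it passed with loess at 0.26 (limma, adjusted p = 0.0489). HoxB region 7 (chr11:96159185-96160914, 8 probes) had -0.26, -0.26 and -0.09 against -0.29, -0.92 and -0.33. Here obesity array 2 alone lay far below the rest, and the difference of 0.31 had a standard error of 0.154 (limma, adjusted p = 0.223). Without that array it was 0.10. HoxD region 1 (chr2:74496978-74498733, 9 probes), named after its values were seen because it came closest after HoxA region 4, had 0.17, 0.13 and 0.15 against 0.36, 0.38 and 0.52, a difference of -0.27 (limma, adjusted p = 0.055).

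None of the regions with most probes in their clusters passed the threshold. HoxA regions 1 (chr6:52262198-52266012) and 8 (chr6:52162568-52166504) have 17 probes each and differed by 0.08 and -0.03. The sign for region 1 turned with quantile normalization and equal scale, as in 4 other alternatives. HoxB regions 4 (chr11:96131358-96133098) and 8 (chr11:96163539-96165269) have 9 probes each and differed by -0.04 and -0.20. The latter had 0.26, 0.13 and 0.20 on the inulin arrays against 0.27, 0.41 and 0.50, without overlap (limma, adjusted p = 0.148). It passed with normexp, where the difference was -0.22 (limma, adjusted p = 0.0465). HoxC region 5 (chr15:102795928-102797675, 9 probes) differed by 0.06 and HoxD region 14 (chr2:74599737-74602216, 12 probes) by 0.0017. HoxD region 14 turned its sign in 6 of 17 alternatives and HoxC region 5 in 3.

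**Figure D3:**
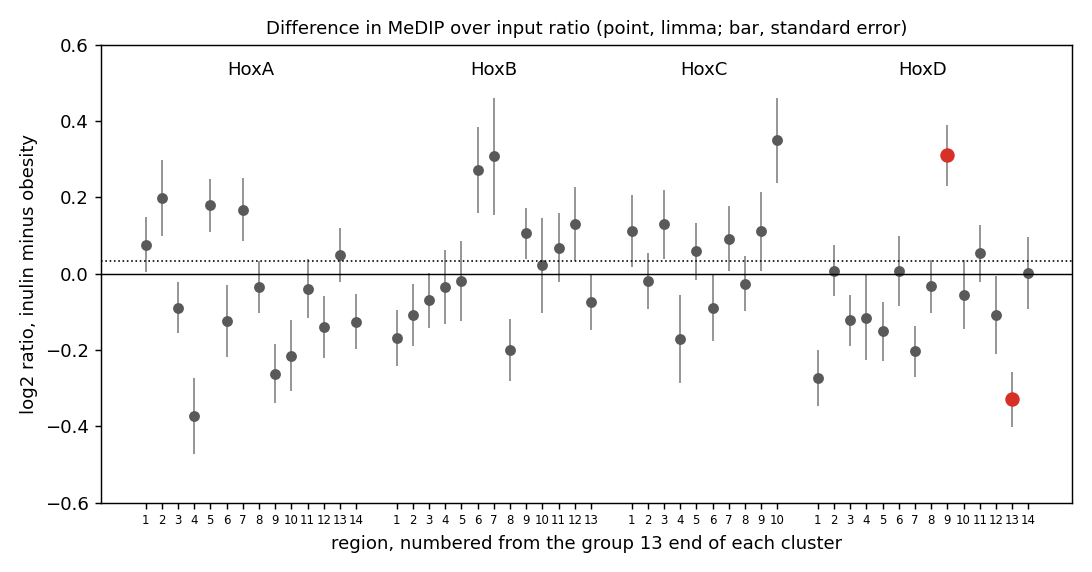
Difference in mean log2 MeDIP/input, inulin minus obesity (y axis), of the 51 Hox regions, numbered from the group 13 end of each cluster (x axis). Points are limma estimates, bars standard errors, red points the 2 regions past the threshold and the dotted line the median over all regions at 0.03; 9 of 14 HoxA and 9 of 14 HoxD points lie below 0 in the main setting.

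By cluster, the median difference was -0.06 in HoxA, -0.02 in HoxB, 0.08 in HoxC and -0.08 in HoxD, against 0.03 over all regions. The HoxC median turned negative with quantile normalization (-0.040), under equal scale (-0.028), in the authors' deposited table (-0.017), after the removal of dim probes (-0.033) and with the median of probes (-0.031). The median over all regions moved too, to -0.001, 0.018, -0.005, -0.011 and -0.0029 in the same order. The HoxA median was 0.0005 under equal scale, and the HoxB median was 0.08 without obesity array 3. In HoxD it ranged from -0.13 to 0.0031, the latter after the removal of dim probes. Differences above 0 were seen in 5 of 14 HoxA, 6 of 13 HoxB, 6 of 10 HoxC and 5 of 14 HoxD regions, 22 of 51 in all (43.1%), against 57.3% of all regions.

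At the level of single probes the share of calls was that of the background. Of 414 Hox probes tested, 34 passed (8.21%), against 8.21% of all probes. There were 17 higher in the inulin group, where 5.12% of all probes were, and 17 lower, where 3.08% were. At an unadjusted p under 0.05 there were 126 (30.4%), against 30.1% of all probes. The called probes were spread over 23 regions, and 5 of these held called probes of both directions. The split of 17 higher to 17 lower moved to 25 and 46 with normexp background correction, 14 and 26 without dim probes, 2 and 8 under equal scale, 2 and 7 with quantile normalization, 1 and 4 in the deposited table and 2 and 0 with scan as a random block. Leaving out obesity array 2 gave 17 and 16. Without obesity array 1 it was 8 and 3, without obesity array 3 it was 13 and 6, and without inulin array 1, 2 or 3 it was 3 and 2, 2 and 0, or 6 and 3.

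Among called probes with both channels well above background, the one with the lowest p as higher was Ch_220697_0126921 (chr6:52265352-52265406) in HoxA region 1. Its log2 ratio was -1.45, -1.33 and -1.29 on the inulin arrays and -2.22, -2.34 and -2.55 on the obesity arrays, a difference of 1.01 with a standard error of 0.129 (limma, adjusted p = 0.013). This call was lost in 6 of 14 alternatives, among them scan as a random block and the omission of inulin array 1 or 2, and the adjusted p ranged from 0.00246 to 0.272. The other 4 higher probes named by the rule, Ch_220697_0126890 in HoxA region 3, Ch_220697_0016654 in HoxB region 9, Ch_220697_0084659 in HoxD region 2 and Ch_220697_0084743 in HoxD region 14, differed by 0.76, 0.94, 0.52 and 0.61. All 5 had ratios below 0 on every array, so they stood under the array's middle in both groups. The lower probes had ratios above 0 on all obesity arrays. Besides Ch_220697_0084741 and Ch_220697_0126875, these were Ch_220697_0016690 in HoxB region 13, Ch_220697_0046081 in HoxC region 5 and Ch_220697_0084653 in HoxD region 1, with differences of -1.16, -0.78 and -0.67. Each of the 10 calls was lost in some alternatives, from 3 of 14 for Ch_220697_0084741 to 10 of 14 for Ch_220697_0084659.

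More Hox probes had a difference below 0 than above it. Their median difference was -0.09, against -0.0020 over all probes, and 255 of 414 (61.6%) lay below 0, against 50.2% of all probes. By cluster the medians were -0.11 in HoxA, -0.06 in HoxB, -0.07 in HoxC and -0.12 in HoxD. The share of Hox probes below 0 lay between 55.9% and 66.7% over the main setting and its 14 alternatives for probes, and exceeded the share of all probes in each. It was smallest without obesity array 3, the array that was most often highest in the Hox regions, and there the HoxC median was 0.01.

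Probe length moved with these differences. Probes of 45 bp, the shortest on the array, made up 256 of the 427 Hox probes (59.95%) and 49.9% of all probes. Probes of 60 bp, the longest, made up 4.68% and 13.2%. The median difference over all probes was -0.11 at 45 bp, 0.08 at 46 to 59 bp and 0.41 at 60 bp. Among Hox probes it was -0.17, 0.05 and 0.57. Of the 17 lower Hox probes, 9 had 45 bp, 8 had 46 to 59 bp and 0 had 60 bp, while the 17 higher ones numbered 1, 13 and 3. Over all probes the lower calls at these lengths numbered 3388, 1710 and 146, and the higher ones 1016, 3724 and 3972. Within the 45 bp probes 73.3% of the Hox differences lay below 0, against 65.5% of all. The part of probe length in the Hox result was not tested.

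**Figure D4:**
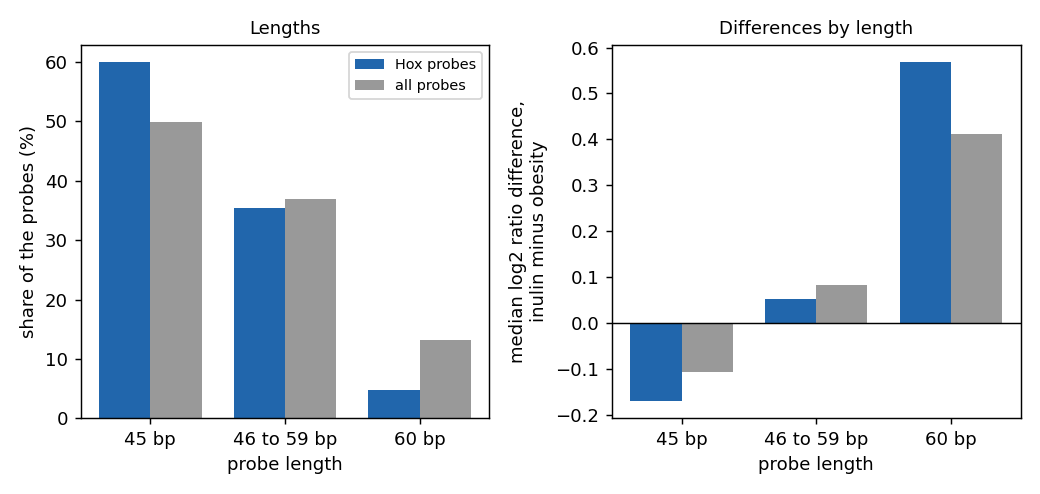
Share of probes of each length in percent (left, y axis) and median log2 ratio difference, inulin minus obesity (right, y axis), by probe length (x axis), for Hox probes in blue and all probes in grey. Hox probes are more often 45 bp long (59.95% against 49.9%), and in both sets the median difference is negative at 45 bp and positive at 60 bp.

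The level of a region moved with its difference as well. Over all regions the median difference was 0.21 in the lowest of the 5 sets by level and -0.09 in the highest. For the Hox regions these were 0.0015 over 8 regions and -0.14 over 9 regions. In the upper 2 sets, 3 of 18 Hox regions had a difference above 0. The part of the level in the Hox differences was not tested.

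The ratio combines 2 channels, and each was also fitted alone. In the MeDIP channel alone, 0 of 51 Hox regions passed in limma, against 0.253% of all regions, and 14 had an unadjusted p under 0.05 (27.5%), against 21.0%. In the input channel, which is not enriched for methylated DNA, 2 Hox regions passed (3.92%), against 2.14% of all regions. Both were higher in the inulin group, where 1.24% of all regions were. At an unadjusted p under 0.05 the input channel had 17 Hox regions (33.3%), against 24.4%. The difference in input was above 0 in 36 of 51 Hox regions, with a median of 0.10, against 13081 of 22574 regions and 0.04 over the array. In MeDIP it was above 0 in 33 Hox regions, with a median of 0.08, against 14088 of all regions and 0.07.

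HoxA region 4 was one of the 2. Its input signal, log2 and centred per array, was -0.48, -0.29 and -0.31 on the inulin arrays and -0.91, -0.96 and -0.996 on the obesity arrays. The input difference was 0.59 (limma, adjusted p = 0.0317), and the MeDIP difference 0.20 (limma, adjusted p = 0.273). The lower ratio of this region in the inulin group thus came with a higher input signal. The other was HoxA region 2, with input signals of 0.78, 0.96 and 0.60 against -0.66, -0.04 and -0.28, and MeDIP signals of -0.03, 0.34 and -0.17 against -1.66, -1.07 and -0.98. Both channels were higher on all inulin arrays, by 1.105 in input (limma, adjusted p = 0.0414) and 1.29 in MeDIP (limma, adjusted p = 0.078), and the ratio differed by 0.20. Of the 11 probes of this region, 6 were well above background in both channels and 3 were never so in the MeDIP channel.

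In the 2 called regions of HoxD the estimated difference was larger in size in input than in MeDIP. In region 13 the difference in input was 0.27 and in MeDIP -0.08. In region 9 it was -0.23 in input and 0.06 in MeDIP. None of these 4 channel differences passed the adjusted threshold in limma. Across the 51 Hox regions the MeDIP and input differences had a Pearson r of 0.81, against 0.69 over all regions, which describes regions that share the same 6 arrays.

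**Figure D5:**
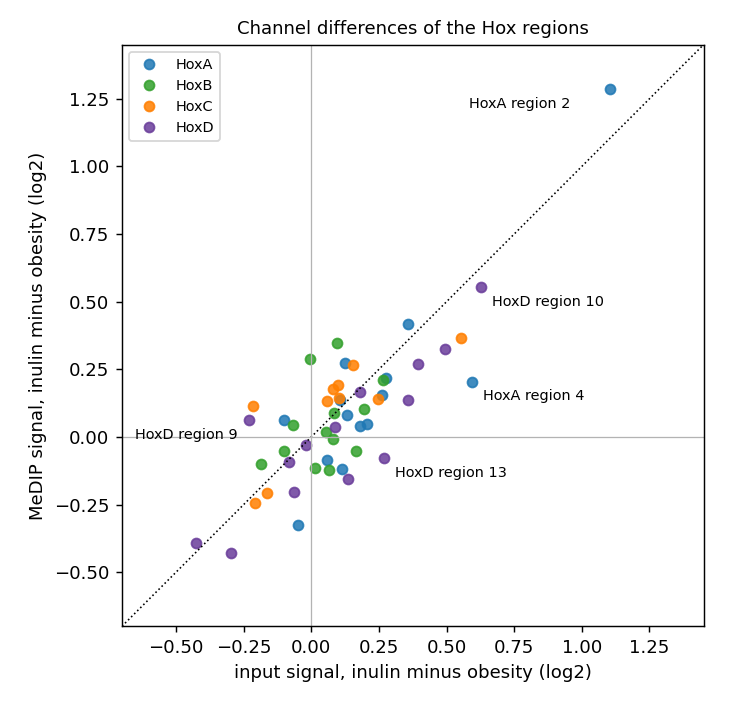
Difference in MeDIP signal (y axis) against difference in input signal (x axis), both log2, inulin minus obesity, of the 51 Hox regions coloured by cluster. The dotted line marks equal differences; HoxA region 2 lies far out in both channels at 1.105 and 1.29, and HoxA region 4 and HoxD region 13 lie to the right of the line.

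At the level of probes, 48 Hox probes passed as higher and 13 as lower in the input channel, 11.6% and 3.14% of those tested, against 7.94% and 5.75% of all probes. In the MeDIP channel 32 passed as higher and 17 as lower, 7.73% and 4.11%, against 6.94% and 3.67%. The higher input calls thus stood above the share of all probes and the lower ones below it, a description with no test, and the MeDIP calls lay near the background.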

How the data were processed

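Per the labels' protocols, MeDIP DNA was labelled with Cy5 (red) and input DNA with Cy3 (green) on 6 two-colour Agilent arrays. Per the file headers, the authors used Feature Extraction 11.0.1.1 (protocol ChIP_1100_Jul11) with mm9 positions. The intensity values used here are its processed signals, which were background-subtracted and dye-normalized per the file headers. The authors' software also wrote a log10 ratio of those signals, per the file headers, and it matched them within 0.0001 at 98.5% to 99.6% of the spots of an array. The authors' deposited table gives a score per probe, whose correlation with the log2 ratio was 0.87 to 0.91. Its array medians were 0.043 to 0.061. Its scale, its centring and how it was made are not given in the sources used here.

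Outlier spots (1901 to 4863 per array) were dropped, and log2 red over green was centred on the array median of non-control probes, without loess or quantile steps. A probe or region entered a test if it had values on 2 or more arrays of each group. The inulin minus obesity contrast was fitted by limma 3.58.1 under R 4.3.3 (lmFit, then eBayes, two-sided), adjusted by Benjamini-Hochberg over all regions or all probes at a threshold of 0.05, and tested on simulated data. Having 3 arrays per group limits the precision. The named regions are those past the threshold and, per cluster, the highest, the lowest, the one with most probes and the one with the largest difference among regions of 5 or more probes. The named probes are, in each direction, the 5 called probes of lowest p whose channels are both above background. The windows, members and lists were chosen with earlier results of these data known. Alternatives were normexp, loess, equal scale, quantile normalization, the deposited table, a filter on dim probes, a replicate block, scan as a random block, gaps of 300 and 1000 bp, the median of probes, and each array left out in turn. Without an mm9 annotation, genes were not assigned to regions. Figures were drawn with matplotlib 3.10.9.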

Additional observations from a re-analysis of the deposited data

How the results depend on the processing

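Among all regions, 1675 passed in the main setting, 2800 with loess, 2699 with the replicate block, 911 under equal scale, 733 with the median of probes, 497 with quantile normalization, 413 in the deposited table and 0 with scan as a random block (limma, correlation 0.289). Deviations of same-numbered arrays from their group means correlated at -0.14, 0.28 and 0.33. Whether the replicate numbers pair the arrays cannot be told from these values alone. Hox regions past the threshold, 1 higher and 1 lower in the main setting, numbered 2 and 4 with loess, 0 and 2 with normexp and with the replicate block, and 0 higher with a gap of 1000 bp. They numbered 0 and 0 with the median of probes, equal scale, quantile normalization, the deposited table and scan as a random block, where limma gave 8, 13, 12, 9 and 7 with an unadjusted p under 0.05. Hox probes, 17 and 17, moved to 28 higher with loess, 46 lower with normexp, 26 lower without dim probes, 2 and 8 under equal scale, 2 and 7 with quantile normalization, 1 and 4 in the deposited table, and 2 and 0 with scan as a random block, where 79 had an unadjusted p under 0.05.

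Median levels moved without dim probes (HoxA 0.39, HoxB 0.16, HoxC 0.050, HoxD 0.32), with the median of probes (HoxA 0.36, HoxB 0.051, HoxC -0.025), with normexp (HoxA 0.054, HoxB 0.0016, HoxC -0.061), with loess (HoxA 0.12, HoxB -0.18), with a gap of 300 bp (HoxC -0.31, HoxD 0.093) and in the deposited table (HoxB -0.054, HoxD 0.14). The median level over all regions moved as well, from -0.055 to 0.22, 0.020, 0.053, 0.011, -0.031 and -0.0039 in the same order. Median differences moved in HoxC to -0.033 without dim probes, -0.028 under equal scale, -0.031 with the median of probes, 0.0031 with normexp, -0.040 with quantile normalization and -0.017 in the deposited table. They moved in HoxD to 0.0031 without dim probes and in HoxB to -0.14 with the median of probes.

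Differences of named regions that did not pass turned their sign as follows. Without dim probes these were HoxC region 5 (-0.087), HoxC region 9 (-0.155), HoxD region 4 (0.074) and HoxD region 5 (0.0145). Under equal scale they were HoxA region 1 (-0.0013), HoxA region 12 (0.0085), HoxB region 10 (-0.23) and HoxC region 9 (-0.13). With quantile normalization they were HoxA region 1 (-0.0048), HoxB region 10 (-0.23) and HoxC region 9 (-0.11), and in the deposited table the same regions (-0.040, -0.22 and -0.038). With the median of probes they were HoxA region 1 (-0.26), HoxA region 12 (0.020), HoxC region 5 (-0.045), HoxD region 4 (0.023) and HoxD region 14 (-0.17). With normexp they were HoxA region 1 (-0.020), HoxB region 10 (-0.0495), HoxC region 5 (-0.020) and HoxD region 14 (-0.018). With a gap of 300 bp they were HoxA region 1 (-0.0079) and HoxD region 14 (-0.13), and with loess HoxD region 14 (-0.0315). The cause of these changes was not tested.

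Leaving out 1 array at a time, all called regions numbered 0 to 2171, Hox regions 0 to 0 higher and 0 to 3 lower (6 to 12 in limma at an unadjusted p under 0.05), and Hox probes 2 to 17 higher and 0 to 16 lower. The HoxB median difference ranged from -0.085 to 0.079, HoxB region 10 from -0.089 to 0.13, HoxB region 4 from -0.13 to 0.026, HoxC region 9 from -0.0040 to 0.17 and HoxD region 14 from -0.10 to 0.057. Besides HoxA region 4, calls were gained by HoxB region 8 with normexp (-0.22, adjusted p = 0.0465 in limma) and, with loess, by HoxC region 10 (0.26, 0.0489) and HoxD region 5 (-0.27, 0.0438). The calls of the 10 named probes were each lost in 3 to 10 of 14 alternatives. No region past the threshold and none of the 10 named probes turned its sign in any alternative run for it.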
